A study of Rattus norvegicus with 9 samples.

Results

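The transcripts described here were those of 36 genes that microglia and other cells of the myeloid lineage use, grouped by role into surface receptors and other markers of microglial identity, ITAM adapters with their receptors and enzymes, leukocyte membrane proteins, proteins of pattern recognition and costimulation, the NADPH oxidase, regulators of the actin skeleton, and transcription factors. They were chosen by earlier readings of the same 9 libraries, in which microglial genes had been low with PCT and high in NPCT replicate 3, so their levels and the counts of DEGs among them are given as a description, and no gene's own p-value is printed. No numerical threshold chose them. The table of 34092 genes held a row for 33 of the 36 by symbol, and 31 of these passed the filter of a mean of at least 0.5 FPKM over the 9 libraries, among 15958 genes tested. No row was named Itgam, Fcgr2a or Dock2, and Cd86 and Was lay under the filter.

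High-throughput RNA-sequence had been performed on wild-type rat primary hippocampal neurons, prepared from foetuses of embryonic day 17 and grown without mitotic inhibitors to 7 days in vitro. The 3 groups of 3 libraries each received vehicle, 1 nM human NPCT (aminoprocalcitonin, a peptide cleaved from procalcitonin) or 1 nM human PCT (procalcitonin, its parent peptide), the peptides for 24 h. The comparisons ask how each peptide changed the transcriptome of the neurons and whether the 2 peptides differ. The labels number 3 replicates per group, whereas in the methods the RNA is said to come from pooled biological triplicates, so it is not known whether a spread between libraries is biological or technical.

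Microglia are the resident macrophages of the brain and enter it early in development, so a culture of foetal hippocampus can carry some of them beside neurons and astrocytes. They live on signals through the CSF1 receptor, sense neurons through CX3CR1 and purine receptors, and pass signals from TREM2 and Fc receptors through small adapters with ITAM motifs to kinases, the actin skeleton and the NADPH oxidase. The transcription factor PU.1, encoded by Spi1, keeps this programme on together with IRF8.

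The libraries held 13573056 to 17211642 fragments on genes. Fragments of the 33 genes other than Coro1a, which was by far the most abundant of them, summed to 180 to 219 CPM with vehicle, 191 and 198 in NPCT replicates 1 and 2, 461 in NPCT replicate 3 and 56.1 to 75.5 with PCT. NPCT replicate 3 therefore stood apart from the other NPCT libraries in these genes. For comparisons with NPCT, the number of DEGs among these genes and their median fold change are given with and without it. The 14 markers of neurons summed to 2280 to 2528 FPKM per library and those of astrocytes to 2525 to 3351. In bulk RNA, fewer microglia and less of these transcripts per microglial cell cannot be told apart.

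With PCT the mean level was below the vehicle mean in 33 of the 33 genes, with a median ratio of 0.242, and more than 4-fold lower in 17. In 27 of the 33, every PCT library lay below every vehicle library, and in 25 of the 31 tested, beside 11.9% of all tested genes. With limma, at a threshold of 0.05 on the adjusted p and of 1.5 on the fold change, 14 of the 31 were DEGs lower with PCT than with vehicle and 0 were higher, beside 1.72% of all genes called lower, and nothing is read from this, since the same contrast chose the genes. These were Cx3cr1, Csf1r, Aif1, Tyrobp, Fcer1g, Lyn, Itgb2, Laptm5, Ly86, Slamf9, Lst1, Ncf1, Vav1 and Spi1. By role they were 3 of 6 identity genes, 3 of 6 genes of ITAM signalling, 2 of 5 leukocyte membrane proteins, 3 of 4 genes of recognition, 1 of 3 oxidase subunits, 1 of 4 actin regulators and 1 of 3 transcription factors. Their count depended on single libraries, being 5 without vehicle replicate 1, 9 without vehicle replicate 2, 6 without vehicle replicate 3 and 9 without PCT replicate 2, and 5 genes (Cx3cr1, Itgb2, Slamf9, Lst1 and Ncf1) were called in each of the 9 fits that left 1 library out. The median log2 fold change of the 31 genes was -1.73, on a log2(FPKM + 0.1) scale that understates changes of low genes, and that of all tested genes was 0.0046.

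The plot of the levels by library shows this for each gene, with the genes in order of role.

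**Figure D1:**
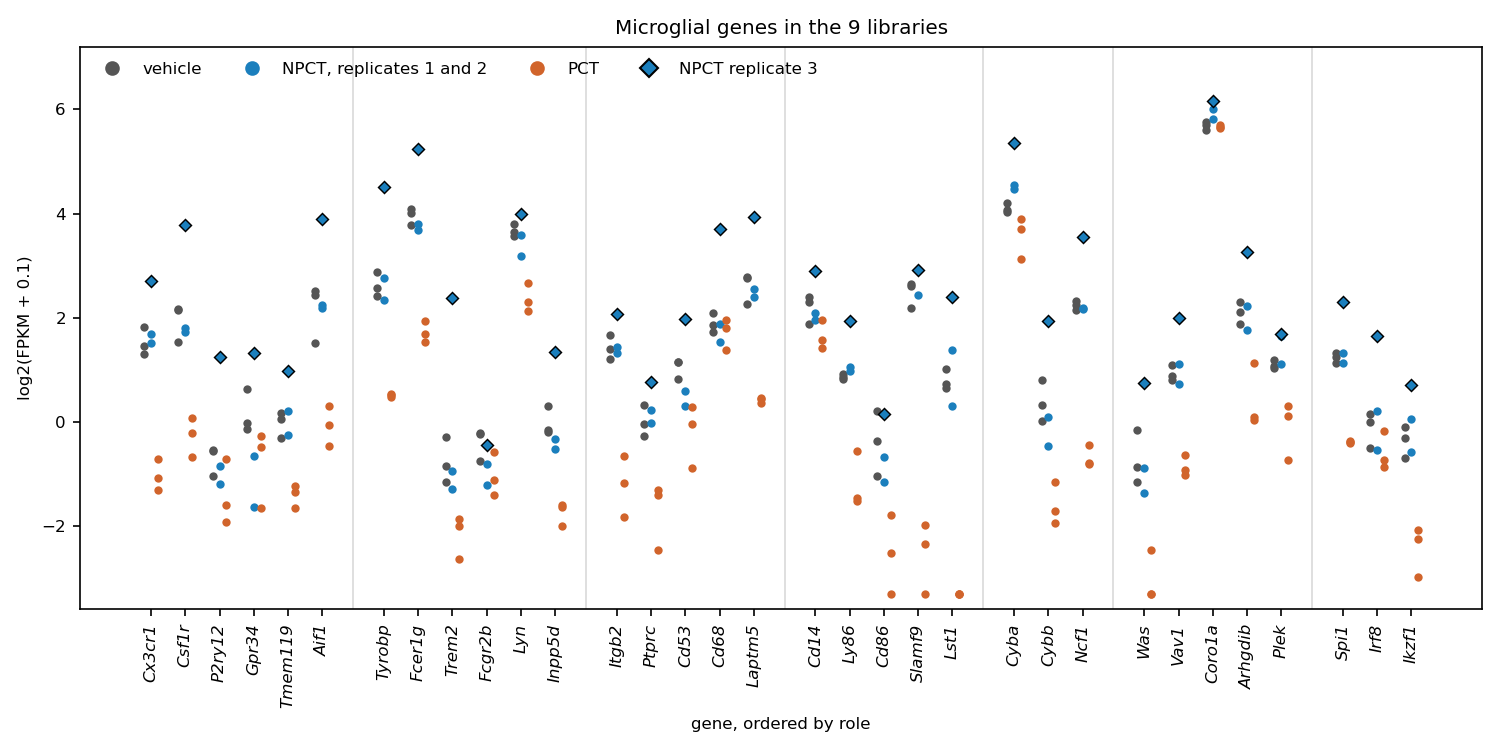
Level of 33 microglial genes in the 9 libraries as log2(FPKM + 0.1), 1 point per library, with vehicle in grey, NPCT in blue and PCT in orange, and NPCT replicate 3 as a diamond; vertical lines separate the 7 roles. The PCT points lie below all vehicle points in 27 of the 33 genes, and the diamond is the highest point in 31.

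Since PU.1 binds purine-rich sequences, the promoters of the genes were searched for its core, with the 250 bases before each start taken from RefSeq on GRCr8, a newer build than that of the table. RefSeq promoters were matched for 23 of the 36 genes. GAGGAA on either strand was present in 16 of the 23 (69.6%), and in 23.3% of all 33469 promoters of the same length and 22.2% of the 11379 promoters of tested genes. The extended core GAGGAAGT, which contains the first, was in 3 of the 23 (13%) and 2.04% of all, the genes being Cd53, Slamf9 and Vav1. The ETS-IRF composite element, GGAA and GAAA with 2 bases between them on either strand, whose first letters can lie within the PU.1 core, was in 2 (8.70%, Cd68 and Cybb) and 2.48% of all. For contrast, the AP-1 site TGACTCA was in 1 (4.35%) and 4.05% of all, and TATAAA in 3 (13%) and 12.9% of all, both on either strand. The median number of CG pairs was 4 in the 23 and 5 in all promoters.

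The last 100 bases before the start follow for 8 of these genes, 5′ to 3′ in the direction of transcription, with capitals for GAGGAA or its reverse complement TTCCTC. The first 3 hold the extended core, Laptm5, Trem2, Cybb and Gpr34 hold a core near the start, and Coro1a, whose PCT libraries lay inside the vehicle range, holds none in 250 bases.
Slamf9 (chr13:87474227-87474326, plus strand): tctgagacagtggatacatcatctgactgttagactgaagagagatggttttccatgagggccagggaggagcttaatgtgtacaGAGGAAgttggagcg
Vav1 (chr9:2248855-2248954, plus strand): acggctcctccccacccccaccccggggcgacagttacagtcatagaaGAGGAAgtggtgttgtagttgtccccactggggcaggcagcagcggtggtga
Cd53 (chr2:197087897-197087996, minus strand): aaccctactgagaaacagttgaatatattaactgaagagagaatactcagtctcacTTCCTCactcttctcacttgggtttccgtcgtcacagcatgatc
Laptm5 (chr5:148371780-148371879, plus strand): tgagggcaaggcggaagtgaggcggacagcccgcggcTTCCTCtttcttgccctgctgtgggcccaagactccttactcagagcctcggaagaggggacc
Trem2 (chr9:20151780-20151879, minus strand): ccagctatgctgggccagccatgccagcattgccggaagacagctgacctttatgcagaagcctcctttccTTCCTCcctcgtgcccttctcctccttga
Cybb (chrX:16065066-16065165, minus strand): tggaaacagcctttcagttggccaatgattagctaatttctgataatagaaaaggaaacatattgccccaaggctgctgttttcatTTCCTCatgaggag
Gpr34 (chrX:11785837-11785936, minus strand): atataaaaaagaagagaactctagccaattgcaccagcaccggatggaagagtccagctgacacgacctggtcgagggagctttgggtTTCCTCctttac
Coro1a (chr1:190731104-190731203, minus strand): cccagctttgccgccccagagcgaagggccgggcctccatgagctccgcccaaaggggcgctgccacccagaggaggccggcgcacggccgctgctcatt

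Among the genes of microglial identity, Aif1, which encodes the calcium-binding protein IBA1 by which microglia are usually stained, had 5.29, 2.76 and 5.61 FPKM with vehicle, 4.65, 4.45 and 14.7 with NPCT and 1.12, 0.626 and 0.855 with PCT. Csf1r, the receptor for CSF1 and IL-34 on which microglial survival rests, had 4.31, 2.78 and 4.37 FPKM with vehicle, 3.20, 3.39 and 13.6 with NPCT and 0.525, 0.760 and 0.945 with PCT. For Cx3cr1, the fractalkine receptor (chr8:128740756-128754514 on the build of the table, Rnor_6.0), the values were 3.44, 2.38 and 2.66 FPKM with vehicle, 3.13, 2.73 and 6.40 with NPCT and 0.508, 0.371 and 0.301 with PCT. In all 3 genes the PCT libraries lay below the vehicle and NPCT libraries without overlap, and NPCT replicate 3 was the highest of the 9. The vehicle mean was 5.24-fold the PCT mean for Aif1, 5.14-fold for Csf1r and 7.18-fold for Cx3cr1, with fitted log2 differences of -2.23 (SE 0.46), -2.22 (SE 0.50) and -2.57 (SE 0.33).

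The other 3 identity genes were low and less uniform. Tmem119, a membrane protein that separates microglia from other macrophages in brain tissue, had 0.884 ± 0.165 FPKM with vehicle and 0.277 ± 0.0544 with PCT (mean ± SD, n = 3), without overlap. P2ry12, the ADP receptor of resting microglia, ran from 0.386 to 0.589 FPKM with vehicle and from 0.161 to 0.505 with PCT, and these ranges overlapped. Gpr34, a receptor for lysophosphatidylserine, ran from 0.803 to 1.44 with vehicle and from 0.217 to 0.726 with PCT, while NPCT replicates 1 and 2, at 0.220 and 0.536, lay within the PCT range. The spans of both genes overlap a gene on the other strand, Med12l and Cask, though exons were not compared. No strand-marking step is stated for these libraries, so some of their reads could come from the partner.

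Of the ITAM adapters, Fcer1g, the common gamma chain of activating Fc receptors, had 16.8, 13.6 and 16.1 FPKM with vehicle, 12.7, 13.8 and 37.9 with NPCT and 3.10, 2.79 and 3.70 with PCT. Tyrobp, the adapter DAP12 through which TREM2 signals, had 5.84, 5.23 and 7.22 FPKM with vehicle, 6.64, 4.97 and 22.5 with NPCT and 1.34, 1.28 and 1.32 with PCT. Its 3 PCT libraries agreed closely, at 1.32 ± 0.0298 (mean ± SD, n = 3). Lyn, a SRC family kinase that phosphorylates ITAM motifs, had 13.8, 11.8 and 12.4 FPKM with vehicle, 8.94, 11.9 and 15.8 with NPCT and 4.79, 6.21 and 4.29 with PCT. The vehicle mean was 4.86-fold the PCT mean for Fcer1g and 4.63-fold for Tyrobp, but 2.48-fold for the kinase, and none of the 3 overlapped between PCT and vehicle or PCT and NPCT, whereas vehicle and NPCT overlapped in all 3.

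Trem2, the lipid-sensing receptor that pairs with DAP12, was low in 8 of the 9 libraries and high in the other one. It had 0.451, 0.348 and 0.716 FPKM with vehicle, 0.309, 0.422 and 5.09 with NPCT and 0.175, 0.0608 and 0.148 with PCT, from 3, 1 and 3 fragments in the PCT libraries and 91 in NPCT replicate 3. The ratio of vehicle to PCT depth-scaled fragments was 3.87 (1.64 to 10.6), with a 95% interval for counting error only. Inpp5d, the phosphatase SHIP1 that restrains these signals, ran from 0.768 to 1.14 FPKM with vehicle and from 0.150 to 0.228 with PCT. Fcgr2b, the inhibitory Fc receptor, was the member least like the others. It ran from 0.494 to 0.762 with vehicle and from 0.277 to 0.565 with PCT, with overlap, and NPCT replicate 3 was not its highest library. Its row overlaps that of Fcgr3a on the other strand and the Fc receptors are near copies of each other, so its level is uncertain.

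Of the leukocyte membrane proteins, Laptm5, a lysosomal protein of blood cells, had 6.81, 4.72 and 6.65 FPKM with vehicle, 5.73, 5.14 and 15.2 with NPCT and 1.26, 1.26 and 1.19 with PCT. Itgb2, the beta chain of complement receptor 3, had 3.06, 2.53 and 2.19 FPKM with vehicle, 2.38, 2.59 and 4.11 with NPCT and 0.342, 0.536 and 0.181 with PCT. Both fell without overlap, Laptm5 with a vehicle mean 4.90-fold the PCT mean and Itgb2 with 7.36-fold, among the larger differences. Cd68, a lysosomal glycoprotein of macrophages, differed from both, with 4.15, 3.19 and 3.51 FPKM with vehicle, 3.57, 2.81 and 12.99 with NPCT and 2.50, 3.80 and 3.40 with PCT. Here the PCT and vehicle ranges overlapped, and the fitted log2 difference was -0.17 (SE 0.48). Ptprc, the phosphatase CD45 of all leukocytes, ran from 0.731 to 1.15 FPKM with vehicle and from 0.0801 to 0.305 with PCT, and the tetraspanin Cd53 from 1.66 to 2.11 and from 0.436 to 1.12, both without overlap.

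Of the genes of recognition and costimulation, Slamf9 and Lst1 had almost no fragments with PCT. Slamf9, an orphan member of the SLAM family (ENSRNOG00000008045, chr13:90836361-90839411 on Rnor_6.0), had 6.03, 4.47 and 6.19 FPKM with vehicle, 7.43, 5.29 and 7.47 with NPCT and 0.0966, 0.151 and 0 with PCT. These were 129, 93 and 125 fragments with vehicle and 2, 3 and 0 with PCT, and the ratio of vehicle to PCT depth-scaled fragments was 72.3 (30.7 to 224). Lst1, a small transmembrane protein of leukocytes (ENSRNOG00000000855), had 1.46, 1.92 and 1.55 FPKM with vehicle, 2.48, 1.14 and 5.15 with NPCT and 0, 0 and 0 with PCT. No PCT library held a fragment of it, against 11, 14 and 11 with vehicle, so it was at least 4.14-fold lower with PCT than with vehicle if each PCT library is set at a floor of 3 fragments.

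Of the other 3 genes of this role, Ly86, which encodes the partner MD-1 of the receptor CD180, had 1.79, 1.66 and 1.71 FPKM with vehicle, 1.97, 1.85 and 3.74 with NPCT and 0.247, 0.580 and 0.261 with PCT, without overlap. Cd14, the coreceptor for lipopolysaccharide, had 4.80, 3.56 and 5.17 FPKM with vehicle, 3.75, 4.14 and 7.32 with NPCT and 2.58, 3.77 and 2.85 with PCT. Its PCT and vehicle ranges overlapped and the vehicle mean was 1.47-fold the PCT mean. Cd86, a ligand of CD28 and CTLA-4, was under the filter, with 11, 29 and 18 fragments with vehicle and 2, 5 and 0 with PCT.

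The NADPH oxidase, which makes superoxide in phagocytes, was measured through 3 subunits. Cyba, the smaller membrane subunit, which many cell types express, had 18.3, 16.8 and 16.3 FPKM with vehicle, 23.4, 22.0 and 40.6 with NPCT and 8.60, 14.8 and 12.9 with PCT. Cybb, the catalytic subunit of phagocytes, had 1.65, 0.910 and 1.15 FPKM with vehicle, 0.619, 0.961 and 3.72 with NPCT and 0.205, 0.345 and 0.160 with PCT. Ncf1, the cytosolic organiser subunit, had 4.64, 4.33 and 4.92 FPKM with vehicle, 4.47, 4.35 and 11.6 with NPCT and 0.468, 0.635 and 0.475 with PCT. The PCT libraries lay below the vehicle libraries in each, but the vehicle mean was 1.41-fold the PCT mean for Cyba, 5.21-fold for Cybb and 8.80-fold for Ncf1. Ncf1 had the log2 difference -2.93 (SE 0.34) with 20 to 26 fragments in each PCT library.

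The actin regulators held the gene that differed least. Coro1a, an actin-binding protein of leukocytes that neurons express as well, had 51.9, 48.8 and 54.2 FPKM with vehicle, 64.6, 56.2 and 72.0 with NPCT and 50.9, 49.7 and 51.7 with PCT. Its 3 PCT libraries lay inside the vehicle range, the ratio of means was 0.984, and its log2 difference of -0.02 (SE 0.09) turned to 0.013 without vehicle replicate 3. Arhgdib, a regulator of small GTPases in blood cells, had 4.22, 4.81 and 3.59 FPKM with vehicle, 3.29, 4.57 and 9.44 with NPCT and 0.919, 0.959 and 2.09 with PCT. Plek, pleckstrin, had 2.18, 1.99 and 1.96 FPKM with vehicle, 2.06, 3.04 and 3.12 with NPCT and 0.5004, 0.979 and 1.14 with PCT. PCT libraries of both lay below vehicle without overlap, though Plek shares its locus with Cnrip1 on the other strand, a gene at 79.4 FPKM on average.

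Vav1, an exchange factor of Rac, ran from 1.64 to 2.02 FPKM with vehicle and from 0.389 to 0.540 with PCT. Was, the regulator of actin branching named after Wiskott-Aldrich syndrome, had 0.450, 0.347 and 0.794 FPKM with vehicle, 0.288, 0.441 and 1.56 with NPCT and 0, 0.0809 and 0 with PCT. That was 0, 2 and 0 fragments with PCT against 12, 9 and 20 with vehicle, a depth-scaled ratio of 21.4 (5.55 to 182). It lies on the X chromosome, 543 kb from Cybb.

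Of the transcription factors, Spi1 had 2.08, 2.27 and 2.41 FPKM with vehicle, 2.39, 2.08 and 4.84 with NPCT and 0.647, 0.676 and 0.663 with PCT. Its vehicle mean was 3.40-fold the PCT mean, and the PCT libraries agreed to 0.662 ± 0.0141 (mean ± SD, n = 3). Irf8 had 0.891, 1.01 and 0.605 FPKM with vehicle, 1.05, 0.586 and 3.04 with NPCT and 0.496, 0.444 and 0.779 with PCT. The PCT range of Irf8 overlapped the vehicle range, and its log2 difference was -0.48 (SE 0.53). Ikzf1, the lymphoid and myeloid factor Ikaros, had 0.707, 0.520 and 0.829 FPKM with vehicle, 0.942, 0.567 and 1.53 with NPCT and 0.0261, 0.136 and 0.110 with PCT, without overlap between PCT and vehicle. Its PCT libraries held 1, 5 and 5 fragments. The 95% intervals of the log2 differences overlapped among the 3 factors, being -2.28 to -0.97 for Spi1, -1.68 to 0.71 for Irf8 and -3.22 to -0.92 for Ikzf1.

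In the promoter sequences given above, the PU.1 core began 12 bases before the start in Gpr34, 14 in Cybb, 15 in Slamf9, 29 in Trem2, 44 in Cd53, 52 in Vav1 and 63 in Laptm5. A core did not go with a large difference in every gene. Cd68 has one 27 bases before the start and overlapped between PCT and vehicle, whereas Cx3cr1 and Ncf1 have none in 250 bases and differed more than 7-fold. A match in these letters is a description and not a binding site.

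Set side by side as differences from the vehicle mean, the genes show 2 departures, a broad one in the 3 PCT libraries and one in NPCT replicate 3.

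**Figure D2:**
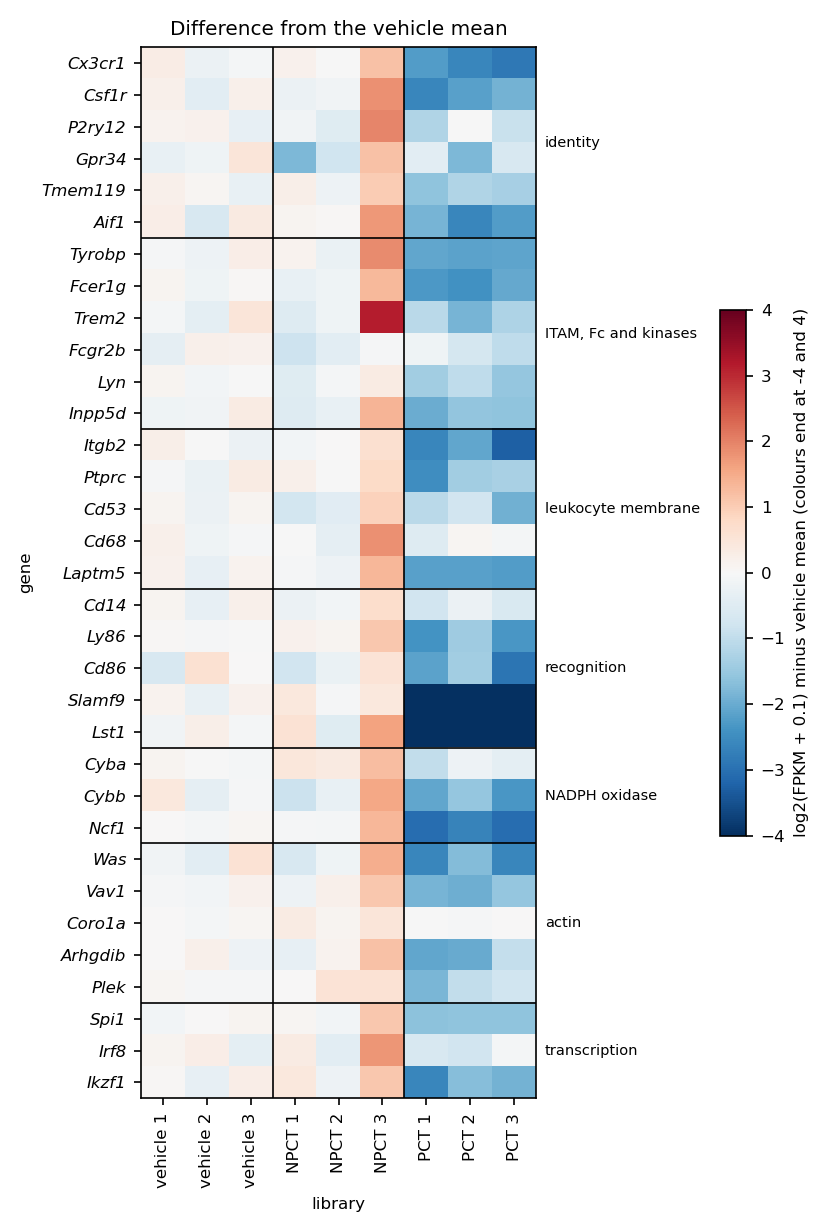
Difference of each library from the vehicle mean in log2(FPKM + 0.1) for 33 microglial genes, in rows by role, with red above and blue below the vehicle mean and colours that end at -4 and 4. The PCT columns are blue for most genes, with Coro1a and Cd68 nearest to white and Irf8, Cyba and Cd14 pale, and the column of NPCT replicate 3 is red in all roles while NPCT replicates 1 and 2 are mostly pale.

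Against vehicle, NPCT gave 0 DEGs among the 31 genes with limma and 0 with limma-voom, beside 0.219% of all genes called in either direction. Without NPCT replicate 3, limma gave 0 DEGs among 28 genes. Unadjusted p-values lay under 0.05 in 2 of the 31 (Coro1a and Cyba), and in 29.3% of all tested genes. The median log2 fold change of the 31 genes was 0.35, and -0.06 over the 28 genes that passed the filter without NPCT replicate 3. NPCT replicate 3 was the highest of the 9 libraries in 31 of the 33 genes, the exceptions being Fcgr2b and Cd86, and in 30 of the 31 tested, beside 16.7% of all tested genes. It reached at least 2 times the mean of NPCT replicates 1 and 2 in 23 of the 33 and in 21 of the 31 tested, beside 2.96% of all tested genes. Trem2, P2ry12 and Ikzf1 passed the filter only through this library. Among the 28 members that passed without it, it was the highest in 27, beside 16.4% of all genes that did so, and at least 2 times the mean of the other NPCT libraries in 18, beside 2.76%. The median of this ratio was 2.40 over the 33 genes and 0.999 over all genes, and it ran from 1.17 for Slamf9 to 13.9 for Trem2. Because earlier readings of this library chose the genes, these shares are a description too.

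NPCT replicates 1 and 2 alone were close to vehicle. Their mean was below the vehicle mean in 22 of the 33 genes and above it in 11, with a median ratio of 0.952. The ratio ran from 0.364 for Gpr34, which had 4 and 10 fragments in these libraries, to 1.33 for Cyba. In Aif1, for example, NPCT replicates 1 and 2 had 4.65 and 4.45 FPKM, whereas the SD of all 3 was 5.85 FPKM.

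Genes with a large difference in the PCT libraries were not always those with a large one in NPCT replicate 3, as the plot of both quantities shows. Slamf9, whose vehicle mean was 67.3-fold the PCT mean, had the smallest ratio in NPCT replicate 3. Trem2, Gpr34, P2ry12, Cybb, Was, Csf1r and Cd68 were all at least 4.07 times the mean of the other NPCT libraries there. Of these, P2ry12 and Cd68 overlapped between PCT and vehicle, and the other 5 did not.

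**Figure D3:**
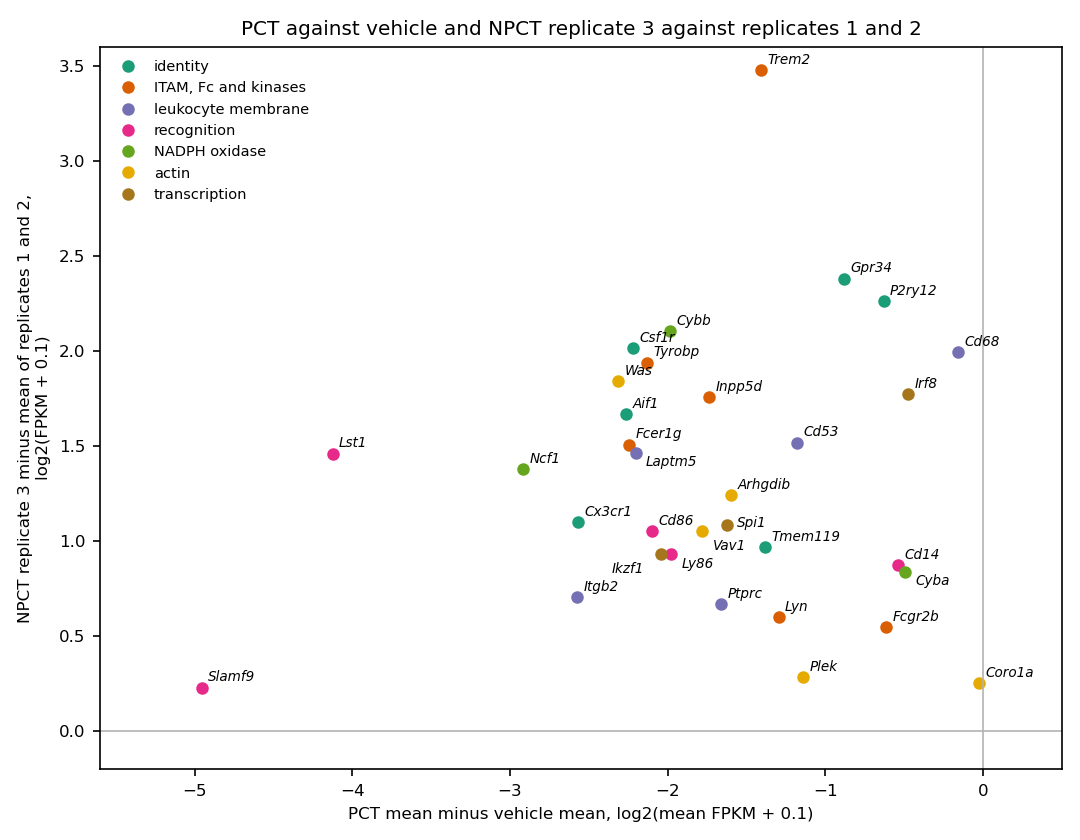
For each of 33 microglial genes, the PCT mean minus the vehicle mean (x axis) and NPCT replicate 3 minus the mean of NPCT replicates 1 and 2 (y axis), both as differences of log2(FPKM + 0.1), coloured by role. Slamf9 lies at the lower left, Trem2 at the top and Coro1a at the lower right near 0 on both axes.

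Between the 2 peptides at the same dose and time, 22 of the 31 genes were called lower with PCT than with NPCT and 0 higher, beside 4.38% of all genes called lower. Without NPCT replicate 3 the count was 17 of the 28 genes that then passed the filter, and the median log2 difference, which was -2.05 with it, was -1.60. The 4.38% belongs to the fit with that library, and the share of all genes called without it was not taken. All PCT libraries lay below all NPCT libraries in 27 of the 33 genes and in 25 of the 31 tested, beside 15.4% of all tested genes. Each of the 14 genes lower than with vehicle was lower than with NPCT as well. Both comparisons share the PCT libraries, and low levels with PCT and high levels in NPCT replicate 3 chose the genes, so neither count is evidence. The differences between PCT and NPCT were -3.00 (SE 0.33) for Cx3cr1 and -1.22 (SE 0.25) for Cyba on the log2 scale, and -2.64 (SE 0.27) and -0.94 (SE 0.20) without NPCT replicate 3. Coro1a, at -0.33 (SE 0.09), or -0.25 (SE 0.08) without that library, stayed under the fold threshold although its PCT libraries were all lower than its NPCT libraries.

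The 33 genes were spread over 17 chromosomes, with at most 4 on one (chromosome 13). The closest pair was Aif1 (chr20:5161333-5166448) and Lst1 (chr20:5176016-5179263), 9.57 kb apart on Rnor_6.0 in the same orientation. Fcer1g and Fcgr2b were 168 kb apart, and Cyba and Irf8 913 kb.

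A further 77 genes of microglia and myeloid signalling, listed by function with earlier results of these data known, gave 57 to test. Of these, 20 were called lower with PCT than with vehicle and 0 higher, beside 1.72% of all genes called lower, with a median log2 fold change of -1.46 beside 0.0046 for all genes, and 36 lower with PCT than with NPCT, beside 4.38%. The first count was 9, 12 and 13 without vehicle replicates 1, 2 and 3, and 28 without NPCT replicate 3. The second was 25 of 51 genes without NPCT replicate 3, 22 without PCT replicate 1 and 19 in a fit of only the 2 groups. The shares of 1.72% and 4.38% belong to the fit of all 9 libraries, and none was taken for these alternatives. The summed level of the list did not follow these counts, at 1780 to 1958 FPKM with vehicle, 2766, 2574 and 4021 with NPCT and 1617, 1954 and 2261 with PCT. Its 2 most abundant genes, neither of them called, made up 87.1% of this sum. Without them, a split made after the values were seen, it was 283 to 325 FPKM with vehicle, 286, 289 and 673 with NPCT and 159 to 171 with PCT. The most abundant lower than with vehicle were Lyz2, Adgre1, Cd48, Rac2 and Itgal. Lyz2, the lysozyme of macrophages, had 45.0, 26.6 and 39.4 FPKM with vehicle, 34.3, 34.6 and 159.9 with NPCT and 1.93, 3.01 and 1.53 with PCT, a difference from vehicle of -4.06 (SE 0.55, limma, adjusted p = 0.00516). Adgre1, the macrophage marker F4/80, differed by -2.53 (SE 0.22, limma, adjusted p = 0.000662), and Rac2, the Rac of blood cells that Vav1 acts on, by -2.72 (SE 0.31, limma, adjusted p = 0.00257). Cd48, a SLAM family protein, differed by -1.11 (SE 0.16, limma, adjusted p = 0.00785) and Itgal, the alpha chain of the integrin LFA-1, by -2.83 (SE 0.30, limma, adjusted p = 0.00185). Because earlier results were known when this list was written, its counts and p-values, here and below, are a description.

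C1qb, a chain of complement C1q, was among the 5 most abundant genes called lower with PCT than with NPCT. Its level was 7.59, 6.63 and 8.36 FPKM with vehicle, 8.39, 6.88 and 37.1 with NPCT and 3.67, 3.77 and 3.53 with PCT, and its differences were -1.79 (SE 0.52) from NPCT (limma, adjusted p = 0.0462), -1.04 (SE 0.13) from NPCT without NPCT replicate 3 (limma, adjusted p = 0.00607) and -1.02 (SE 0.52) from vehicle (limma, adjusted p = 0.332). NPCT replicate 3 was at least 2 times the mean of NPCT replicates 1 and 2 in 33 of the 57, beside 2.96% of all genes, and in 28 of the 51 that passed the filter without it, beside 2.76%. With NPCT against vehicle, 0 of the 57 were called by limma, beside 0.219%, and 1 with limma-voom. Unadjusted limma p-values lay under 0.05 in 7 of the 57, beside 29.3% of all tested genes. Sall1, a microglial marker that other brain cells can also express and that was picked after its values were seen, had 8.73 ± 0.0639 FPKM with vehicle and 7.55 ± 1.16 with PCT (mean ± SD, n = 3), and was not called.

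Of 10 genes for ligands that act on microglia, also listed with earlier results known, 9 were tested, and their p-values are a description too. With PCT against vehicle, 2 were called lower and 1 higher, beside 1.72% and 0.589% of all genes. With PCT against NPCT, 3 were called lower, beside 4.38% of all genes. Another 1 was called higher, for which the share of all genes was not taken, so nothing is read from it. Il34, a ligand of Csf1r that neurons make, had 2.53, 3.03 and 3.47 FPKM with vehicle, 2.29, 2.67 and 4.25 with NPCT and 1.27, 1.12 and 1.53 with PCT and was lower with PCT than with vehicle, with a log2 difference of -1.14 (SE 0.24, limma, adjusted p = 0.0366). C3, the complement component whose fragments bind complement receptor 3, was lower as well, at -4.09 (SE 0.35, limma, adjusted p = 0.000563), from 89.9 ± 12.3 to 5.29 ± 1.44 FPKM (mean ± SD, n = 3). Icam1, a ligand of beta 2 integrins, was higher, at 0.69 (SE 0.16, limma, adjusted p = 0.0462). Tgfb1, on which microglial identity depends, was called against NPCT, at -1.67 (SE 0.29, limma, adjusted p = 0.00944) and, without NPCT replicate 3, -1.36 (SE 0.25, limma, adjusted p = 0.0199), and its difference from vehicle was -1.06 (SE 0.29, limma, adjusted p = 0.0843). Csf1 and Cx3cl1, picked after their values were seen as the partners of Csf1r and Cx3cr1, were not called with PCT, at 0.39 (SE 0.16) and -0.13 (SE 0.05).

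Over the 9 libraries, the 31 genes tested followed the median level of the list, to which each contributes, with a Pearson correlation from 0.48 in Fcgr2b to 0.99 in Ncf1. Among the 10 genes outside the list that followed it most closely, all at a correlation of 0.99 over 9 libraries, were S100b, Col6a2, Tmem176a, Slc25a18, Gpr37l1, Gsta4, Fcrl2, Dcxr and Lyz2. S100b and Gpr37l1 are genes of astrocytes and other glia, and Fcrl2, listed by RefSeq with the synonym Fcrls, and Lyz2 are genes of myeloid cells. These libraries share the same 3 groups, so the correlations repeat the differences between groups.

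Markers of other cells differed too. Of 12 astrocyte markers, 7 were called lower with PCT than with vehicle (Aqp4, Slc1a2, Aldh1l1, S100b, Aldoc, Glul and Slc4a4), beside 1.72% of all genes. Against NPCT, 4 of the 12 were called lower, beside 4.38%. The summed level of the 12 was 3115 to 3296 FPKM with vehicle, 3125 to 3351 with NPCT and 2525 to 2577 with PCT. The macrophages of brain borders share much with microglia. Their markers summed to 7.45 to 8.80 FPKM with vehicle, 6.55, 9.01 and 33.4 with NPCT and 2.06 to 2.46 with PCT. Of 5 tested, 1 (Folr2) was called lower with PCT against vehicle, beside the same 1.72%. Against NPCT it was 3 of 5, beside 4.38%, a count that includes NPCT replicate 3. All 5, of which 1 (Lyve1) passed the filter only through NPCT replicate 3, were highest in that library, at a median of 4.97 times the mean of NPCT replicates 1 and 2. Of the markers under the filter, Ccr1 was at 0 in all libraries and Cd163 was above 0 only in NPCT replicate 3. The 14 dividing-cell markers, of which 13 had a row, summed to 104 in NPCT replicate 3 and 125 to 139 in the other 8 libraries. Of the 14 neuronal markers, limma called 0 in any comparison, with unadjusted p-values under 0.05 in 5 for PCT against vehicle, 8 for NPCT against vehicle and 11 for PCT against NPCT, beside 18.9%, 29.3% and 33.1% of all genes. Markers of lymphocytes summed to 2.61 FPKM at most, of neutrophils and mast cells to 0.842 and of red blood cells to 1.16. Of the oligodendrocyte lineage, 1 of 12 markers was called higher with PCT than with vehicle, beside 0.589% of all genes called higher, and 6 were highest in NPCT replicate 3, beside 16.7% of all genes. Whether the differences in these other markers reflect a change of their cells, or had a part in the levels of the microglial genes, was not tested.

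**Figure D4:**
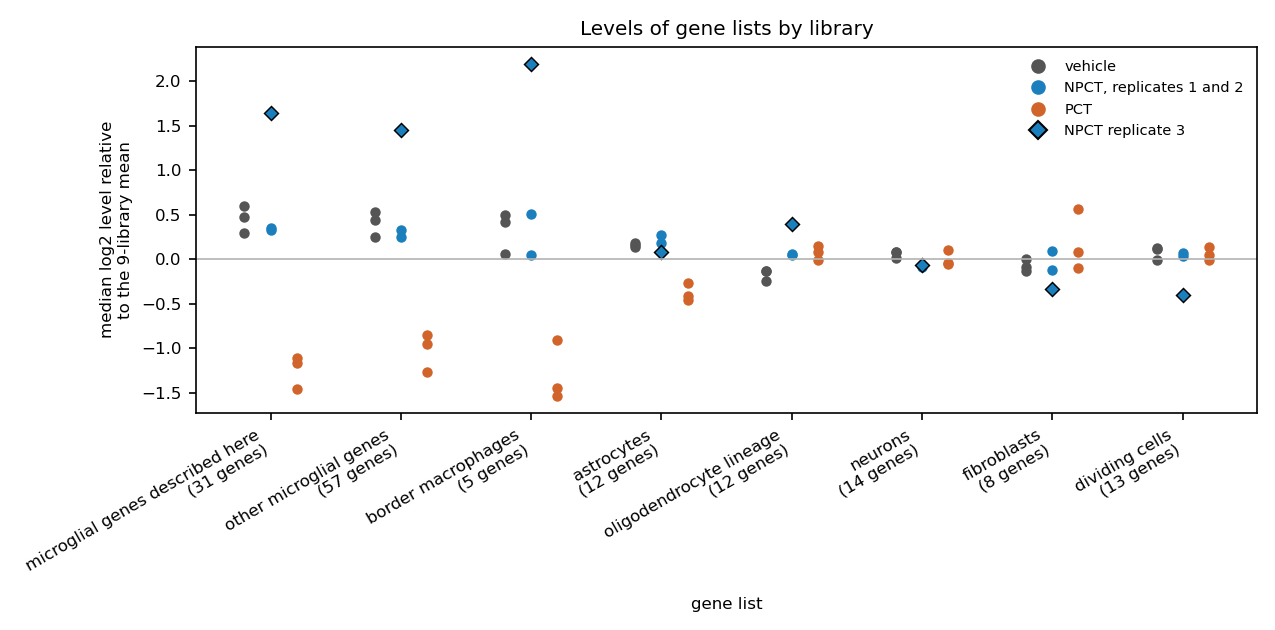
Median over the tested genes of each list of the difference in log2(FPKM + 0.1) between a library and the average of all 9 (y axis), 1 point per library, with vehicle in grey, NPCT in blue, PCT in orange and NPCT replicate 3 as a diamond. Both microglial lists and the border macrophage markers are low in the PCT libraries and high in NPCT replicate 3, the astrocyte markers are lower in the PCT libraries only, and the neuronal markers stay within 0.102 of the mean.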

How the data were processed

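Per the labels, RNA was made into 9 poly-A libraries with random hexamers and sequenced on an Illumina instrument. The authors deposited FPKM per gene and library. The submitters' processing notes name CASAVA, HISAT2 2.0.5, StringTie 1.3.3b, featureCounts 1.5.0-p3, DESeq2 1.20.0 and the build Rnor_6.0, and whether counting used strand is not given in the sources used here. FPKM corrects for gene length, so levels can be set beside each other between genes. The total that divided each library was not its sum of fragments, being 13984670 against 13573056 in NPCT replicate 1. The median ratio to the geometric mean was 1.0065 in every library, so the deposited values had already been scaled between libraries.

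The members, the other lists and the tests were chosen with earlier results of these data known. log2(FPKM + 0.1) was fitted for all 9 libraries together in limma 3.58.1 with its trend (R 4.3.3), after a filter of a mean of at least 0.5 FPKM. Median-ratio scaling left every library as deposited, as it had to for values already scaled. P-values were adjusted over 15958 genes by Benjamini-Hochberg, and DEGs had to pass thresholds of 0.05 on the adjusted p and 1.5 on the fold change. The fit was tested on simulated data. FPKM times gene length, divided by a constant of each library, gave whole fragments for 100% of values within 0.05. These fragments were used for limma-voom and for depth (13573056 to 17211642 fragments per library). They were also used for 95% exact intervals and a floor of 3 fragments, which cover counting error only. Tables were handled in Python 3.11.15 with numpy 2.4.6, pandas 2.3.3 and scipy 1.17.1.

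Values in every library are given for the 3 most abundant members of each role and for members with at most 3 fragments in every library of a group. Genes of the further microglial list and of the ligands are named where called, at most 5 per direction by mean FPKM, and the 10 genes most correlated with the median of the members are named, except for 1 that is not reported here. Alternatives varied the pseudocount, filter, scaling, libraries, block and tool.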

Additional observations from a re-analysis of the deposited data

How the results depend on the processing

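With pseudocounts of 1 and 0.01, a filter at a mean of 1 FPKM, quantile normalization and limma-voom on recovered fragments, the median log2 fold change of the microglial genes with PCT against vehicle was -0.84, -1.98, -2.02, -1.48 and -1.94 beside -1.73, and from -1.82 to -1.61 with 1 library left out. The number called lower ranged from 5 to 16 with 1 library left out, beside 14, and that of the further microglial genes from 9 to 28, beside 20. Against NPCT, the median was -1.10 with a pseudocount of 1 and from -2.33 to -1.60 with 1 library left out, beside -2.05, and a fit of only the 2 groups called 15 members beside 22. The further genes called against NPCT numbered 19 in that fit and 22 to 34 with 1 library left out, beside 36. With NPCT against vehicle, 1 further microglial gene was called, beside 0, with the filter at 1 FPKM, quantile normalization, the 2-group fit, limma-voom and removal of the length trend, and 0 to 1 with 1 library left out. Correlations of the deviations of same-numbered libraries from their group means ran from -0.09 to 0.17. Differently numbered pairs were not set beside them, so whether the numbers mark a shared culture is not known. With the number as a block, 15, 0 and 21 members were called with PCT against vehicle, NPCT against vehicle and PCT against NPCT. That fit also called 2 further genes with NPCT against vehicle. Coro1a with PCT against vehicle ran from -0.063 to 0.013 with 1 library left out, the latter without vehicle replicate 3. Of the values of single members with PCT against vehicle under alternatives, 518 kept direction and side of the threshold, 46 lost the call and 10 gained it. Csf1r and Tyrobp, called in the main fit, were called in 1 and 2 of the 9 fits with 1 library left out. Against NPCT, Gpr34 and Cd68, neither called, reached 0.34 and 0.0074 with 1 library left out, and Inpp5d and Cybb were called in 1 of the 9 such fits. The causes were not tested. P2ry12, Trem2, Lst1, Was, Gpr34 and Cd86, with at most 29 fragments in each library other than NPCT replicate 3, are limited by depth.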

Other observations

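In NPCT replicate 3, several genes outside the 36 were high as well. Among the oligodendrocyte lineage, the myelin genes Mbp and Mag had 25.2 and 2.79 FPKM there, which were 2.18 and 2.79 times the means of NPCT replicates 1 and 2. Of the 12 markers of this lineage, 4 were at least 2 times that mean in NPCT replicate 3, beside 2.96% of all genes. The median of this ratio over the tested markers was 1.25. The chains C1qa, C1qb and C1qc of complement C1q had 38.2, 37.1 and 43.1 FPKM there. These 5 genes were picked after their values were seen, and whether any of this had a part in the levels of the microglial genes was not tested.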
